A study of Mus musculus with 6 samples.

Results

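The genes Penk, Calca, Calcrl, Ramp1, Ramp3 and Nmur1 encode neuropeptide precursors and parts of neuropeptide receptors, and were followed by name through RNA sequencing of mouse lung group 2 innate lymphoid cells (ILC2s). These 6 genes were among 18057 in the table, and all 6 passed the filter on low counts that left 14149 tested genes. The Piezo1 KO group held ILC2s with the genotype Il7rcrePiezo1flx (Il7r-driven Cre with a floxed allele of Piezo1, a mechanically gated cation channel), and the WT group, as the titles name it, held ILC2s with the genotype Il7rcre, so Cre was given in the genotype of both groups. Il7r-driven Cre acts in lymphoid progenitors and their progeny and is not restricted to ILC2s. All mice had received 3 intranasal injections of 1 µg recombinant mouse IL-33, and the isolated cells of both groups were then cultured for 24 h in 10 ng/mL IL-2 plus 10 ng/mL IL-7. No age is stated, and nothing says that the 3 libraries of a group stem from different animals. The p-values therefore reflect variation among these libraries alone, and this variation may be technical.

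ILC2s are tissue-resident lymphocytes that make type 2 cytokines, and in the lung and gut they lie close to nerve fibres and neuroendocrine cells whose peptides they can sense. Neuromedin U, made by neurons, acts through the Gq-coupled receptor NMUR1 and is known to stimulate ILC2s. Calcitonin gene-related peptide (CGRP), one product of Calca, acts through a receptor built from the G protein-coupled chain CALCRL and the single-pass partner RAMP1, which raises cyclic AMP. It is known to restrain ILC2 proliferation and IL-13 and to favour IL-5, and activated ILC2s can make it themselves. Penk encodes proenkephalin, which convertases cut into Met-enkephalin and Leu-enkephalin, ligands of the opioid receptors.

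Total estimated counts per library lay between 13059046 and 33459904, the lowest in WT replicate 3. Piezo1 was at 150, 109 and 122 CPM (counts scaled to the library total with TMM factors) in Piezo1 KO replicates 1, 2 and 3, against 247, 278 and 160 CPM in WT replicates 1, 2 and 3. Its log2 fold change was −0.85 ± 0.21 (SE), which missed the threshold of 0.05 (adjusted p = 0.112, edgeR) and passed it in DESeq2 (0.00193), in limma-voom (0.0157) and without WT replicate 3 (0.0163), and exons of Ctu2 on the other strand overlap it by 2441 bases. The 12 ILC2 markers were all in the table, with a summed level of 7854 to 8849 CPM in Piezo1 KO and 7810 to 8076 CPM in WT, of which Il5 averaged 5159 and 4038 CPM. Of the 12, 1 passed as higher, Il17rb (66.4 against 39.7 CPM, adjusted p = 0.0136, edgeR), and 2 as lower, Il7r, the gene that drives Cre (32.8 against 66.8 CPM, 0.00722), and Icos (234 against 358 CPM, 0.0168). Il17rb and Icos missed the threshold without any 1 of the Piezo1 KO libraries or WT replicate 1 (0.0788 to 0.108), and Il7r without Piezo1 KO replicate 1 (0.0526), Piezo1 KO replicate 2 (0.0630) or WT replicate 1 (0.0639). At an unadjusted p under 0.05, 5 of the 12 were higher and 5 lower (6.3% and 6.91% of all tested genes). The groups did not overlap for 8 of them (20.6% of all tested genes). Gata3 averaged 737 CPM in Piezo1 KO and 986 CPM in WT (adjusted p = 0.0612, edgeR), and Thy1 15.5 and 7.45 CPM (0.0603). Among markers of other cells, mast cell and granulocyte genes (6 of 11 in the table) summed to 4.40 to 5.91 CPM in Piezo1 KO and 12.5 to 17.2 CPM in WT. B and plasma cell genes (4 of 7) summed to 80.4 to 104 CPM in Piezo1 KO and 34.4 to 40.3 CPM in WT, erythroid genes (3 of 6) to 26.7 to 31.3 CPM and 3.70 to 5.25 CPM, and fibroblast genes (2 of 7) to 5.47 to 8.03 CPM and 0.675 to 1.56 CPM. Nearly all of the B and plasma cell sum came from Ighm (64.9 CPM in Piezo1 KO against 18.6 CPM in WT) and Cd79b (23.9 against 17.9 CPM). Cd79a and Mzb1 averaged 0.103 and 0.179 CPM in Piezo1 KO and 0.0517 and 0.0199 CPM in WT. Most of the erythroid sum was Hba-a1 (25.2 CPM in Piezo1 KO against 4.26 CPM in WT). Hba-a2 averaged 2.81 CPM in Piezo1 KO and had 0 counts in each WT library, and Hbb-bt averaged 0.256 against 0.218 CPM. Most of the fibroblast sum was Pdgfrb (6.30 against 1.10 CPM), and Col1a1 averaged 0.214 against 0.0697 CPM. Macrophage and dendritic cell genes (7 of 11) summed to 4.27 to 7.15 CPM in Piezo1 KO and 5.08 to 10.6 CPM in WT. Epithelial genes (3 of 8) summed to 16.1 to 20.9 CPM in Piezo1 KO and 11.97 to 17.8 CPM in WT. Both sums hid members that went opposite ways. Cd68 averaged 3.72 CPM in Piezo1 KO and 2.43 CPM in WT, Csf1r 0.169 and 1.075 CPM, and Lyz2 0.690 and 3.12 CPM. Epcam averaged 16.4 CPM in Piezo1 KO and 12.9 CPM in WT, Krt18 2.26 and 1.30 CPM, and Cdh1 0.117 and 0.840 CPM. The groups did not overlap for Cd68, Csf1r, Krt18 and Cdh1, and no macrophage, dendritic cell or epithelial marker passed in edgeR. Markers of other cells did pass. Higher were Hba-a1 (adjusted p = 0.000383, edgeR), Hba-a2 (0.00531), Ighm (0.00473), Pdgfrb (0.0166) and Pecam1 (0.0193). Lower was Cma1, a mast cell gene, at 1.31 CPM in Piezo1 KO and 5.45 CPM in WT (0.0312). None of the marker genes in the table was at 0 in every library, and the other listed markers were not in the table. The part of these differences in the results below was not tested.

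Of the 6 genes, Penk was higher in Piezo1 KO, Ramp1 was lower, and Calca, Calcrl, Ramp3 and Nmur1 did not pass the threshold on the adjusted p. In this comparison 1.51% of all tested genes passed, 1.00% as higher and 0.509% as lower. For Penk and Ramp1 the groups did not overlap, which held for 20.6% of all tested genes. At an unadjusted p under 0.05 lay 13.2% of all tested genes, 6.3% higher and 6.91% lower. In bulk RNA, fewer cells that express a gene and less of its RNA per cell cannot be told apart.

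**Figure D1:**
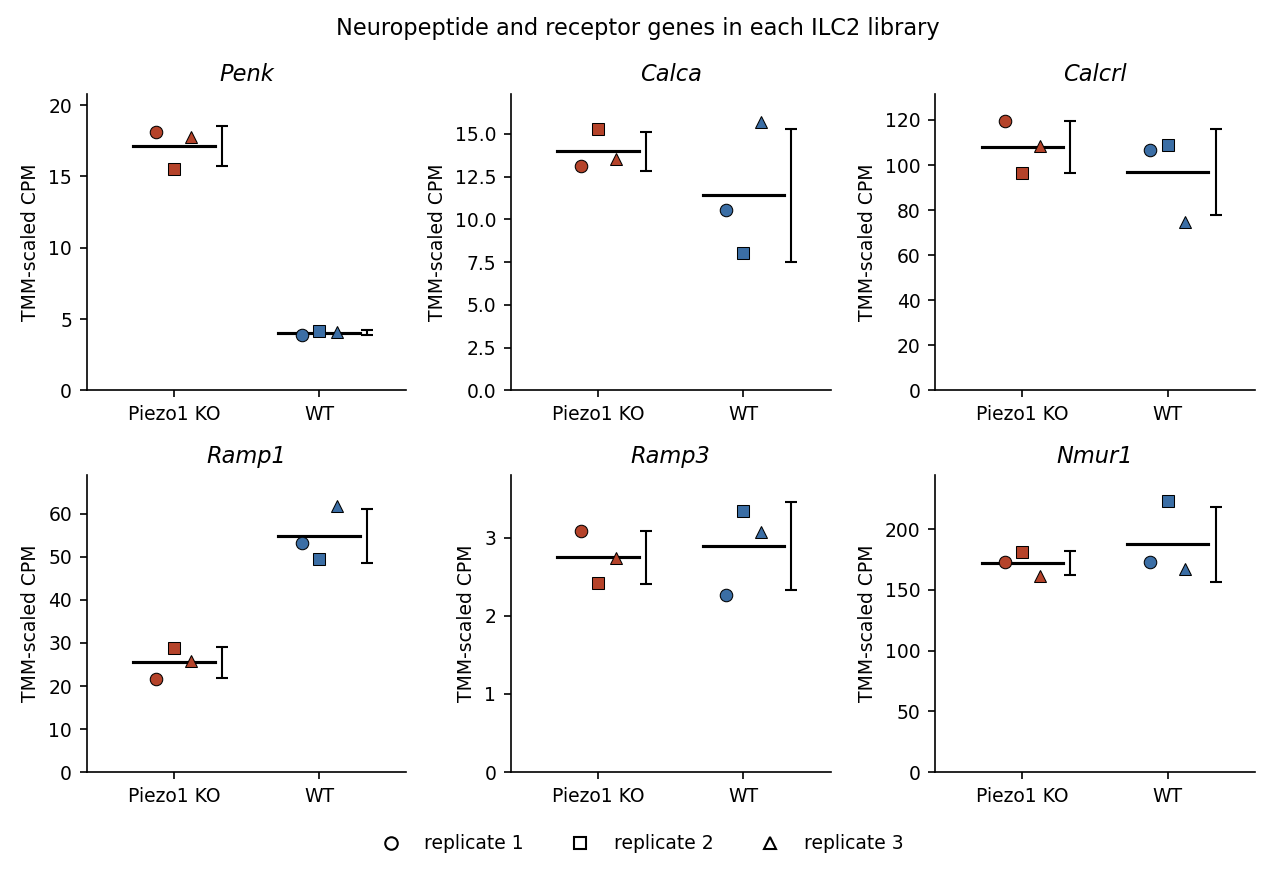
TMM-scaled CPM of the 6 genes (vertical axes, from 0) in the 3 Piezo1 KO libraries (red) and the 3 WT libraries (blue); symbols mark the replicate number, horizontal lines the group mean and the bars beside them 1 SD. The groups are apart for Penk (17.1 against 4.05 CPM on average) and Ramp1 (25.5 against 54.9 CPM) and overlap for the other genes.

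Penk (chr4:4133531-4138819, mm10, minus strand) was the peptide precursor that rose. It had 18.1, 15.5 and 17.7 CPM in Piezo1 KO replicates 1, 2 and 3, against 3.87, 4.15 and 4.12 CPM in WT replicates 1, 2 and 3, from 415 to 449 counts and 55 to 139 counts per library. Every Piezo1 KO library was above every WT library, and the WT libraries lay close together. Penk averaged 17.1 ± 1.41 CPM in Piezo1 KO and 4.05 ± 0.153 CPM in WT (SD, n = 3 each), a 4.22-fold difference. The log2 fold change was 2.08 ± 0.15 (SE), with a 95% interval of 1.73 to 2.43 and an adjusted p of 0.000668 (edgeR quasi-likelihood test, Benjamini-Hochberg over all tested genes). It passed in all 13 alternative fits, with log2 fold changes of 2.03 to 2.14.

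The exons of Penk overlap those of a gene on the other strand, A830012C17Rik, by 233 bases, and the sources do not say whether counting used strand. T cells can also express Penk. The T cell markers (8 of 10 in the table) summed to 179 to 208 CPM in Piezo1 KO and 192 to 237 CPM in WT, and these groups overlapped. Nearly all of that sum was Trbc2, Lef1, Trbc1 (28.2 CPM in Piezo1 KO against 31.5 CPM in WT) and Cd3g (21.7 against 27.1 CPM). Trac averaged 0.626 CPM in Piezo1 KO and 0.603 CPM in WT, Cd3d 0.528 and 0.180 CPM, and Foxp3 0.959 and 2.07 CPM. Of the 7 tested T cell markers 0 passed in edgeR, and Lef1 passed in DESeq2 (0.0392). At an unadjusted p under 0.05, 1 was higher (Lef1) and 2 lower (Cd3e and Trbc2), against 6.3% and 6.91% of all tested genes. Lef1, a transcription factor of T cells, averaged 54.5 ± 3.65 CPM in Piezo1 KO and 39.1 ± 5.40 CPM in WT (SD, n = 3 each). Cd3e, the epsilon chain of CD3, averaged 1.20 ± 0.373 CPM in Piezo1 KO and 2.83 ± 0.411 CPM in WT, and Trbc2, a T cell receptor beta constant segment, 84.9 ± 9.40 CPM and 106 ± 15.1 CPM (SD, n = 3 each). The part of these markers in the Penk result was not tested.

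Across the 6 libraries, the genes whose pattern lay nearest to that of Penk were Trib2, Scd1 and Il1r2. Nearness was the root mean square difference of log2 CPM after centring each gene on its own mean, and was 0.10, 0.13 and 0.17 for these genes, against a median of 1.02 over the 183 genes that vary enough to be compared. Trib2, a pseudokinase, averaged 30.2 CPM in Piezo1 KO and 7.64 CPM in WT. Scd1, the stearoyl-CoA desaturase that makes monounsaturated fatty acids, averaged 21.3 CPM in Piezo1 KO and 5.34 CPM in WT. Il1r2, the decoy receptor for IL-1, was far more abundant, at 505 CPM in Piezo1 KO and 124 CPM in WT.

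Among receptors and other peptides of the opioid list, 4 of 10 genes were in the table and 3 were tested, of which Penk rose, 0 fell and 2 did not pass. Ogfr, the opioid growth factor receptor that binds Met-enkephalin and is unrelated to the classical opioid receptors, averaged 47.7 ± 2.19 CPM in Piezo1 KO and 58.3 ± 4.44 CPM in WT (SD, n = 3 each), with a log2 fold change of −0.29 ± 0.10 (SE) and an adjusted p of 0.245 (edgeR). Pomc, the precursor of beta-endorphin, had 4 to 14 counts per Piezo1 KO library and 2 to 17 per WT library and was too low to be tested. The classical opioid receptor genes were not among the 4 list genes in the table, so they were not analysed.

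Of the enzymes that cut and finish peptide precursors, Pcsk1, which encodes prohormone convertase 1/3 and can cleave proenkephalin, was the list member with the smallest p. It had 203, 198 and 216 CPM in Piezo1 KO replicates 1, 2 and 3, against 318, 278 and 262 CPM in WT replicates 1, 2 and 3, so it was lower in each Piezo1 KO library while Penk was higher. The log2 fold change was −0.47 ± 0.10 (SE), which missed the threshold (adjusted p = 0.0720, edgeR). Pcsk1 passed in DESeq2 (0.00131), in limma-voom (0.0127), without WT replicate 2 (0.0490) and without WT replicate 3 (0.0425). Of the 8 tested processing and granule genes 0 passed in edgeR. At an unadjusted p under 0.05, 1 was higher and 1 lower (6.3% and 6.91% of all tested genes). Cpe, the carboxypeptidase that trims convertase products, was at 0.553 ± 0.130 CPM in Piezo1 KO and 0.380 ± 0.0768 CPM in WT (SD, n = 3 each), and Furin, a convertase of the secretory route, at 1438 ± 103 CPM and 1163 ± 147 CPM. Of 9 tested peptide-degrading enzymes 0 passed, with 1 at an unadjusted p under 0.05 (13.2% of all tested genes). That gene was Dpp4, a dipeptidyl peptidase, at a log2 fold change of 0.38 ± 0.16 (SE, adjusted p = 0.357, edgeR).

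Ramp1 (chr1:91179822-91225196, mm10, plus strand), the partner that turns CALCRL into the CGRP receptor, was the receptor part that fell. It had 21.7, 28.8 and 25.9 CPM in Piezo1 KO replicates 1, 2 and 3, against 53.3, 49.5 and 61.8 CPM in WT replicates 1, 2 and 3, from 513 to 834 counts and 825 to 1657 counts per library. The highest Piezo1 KO library stayed below the lowest WT library. Ramp1 averaged 25.5 ± 3.59 CPM in Piezo1 KO and 54.9 ± 6.33 CPM in WT (SD, n = 3 each), 2.15-fold lower in Piezo1 KO. In the fit Ramp1 had a log2 fold change of −1.10 ± 0.14 (SE), with a 95% interval of −1.42 to −0.79 and an adjusted p of 0.01002 (edgeR). Across the 13 alternative fits it lay between −1.20 and −1.01. The call was lost without Piezo1 KO replicate 1 (adjusted p = 0.0671, edgeR), without Piezo1 KO replicate 3 (0.0640) and without WT replicate 1 (0.0781).

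The stretch before the Ramp1 start site is shown beside those of Ramp3 and Calcrl, which encode its paralog and its partner, and of Calca, which encodes the ligand. RefSeq sequences (GRCm38.p6) were matched for 5 of the 6 genes and not for Penk. Each line gives the 250 bases before the RefSeq start, 5′ to 3′ on the gene's own strand, with motif matches in capitals. The gene positions given elsewhere are those of GENCODE, whose Calcrl and Ramp3 genes begin upstream of the RefSeq start, so these stretches lie partly inside them.
Ramp1 (chr1:91179572-91179821, plus strand): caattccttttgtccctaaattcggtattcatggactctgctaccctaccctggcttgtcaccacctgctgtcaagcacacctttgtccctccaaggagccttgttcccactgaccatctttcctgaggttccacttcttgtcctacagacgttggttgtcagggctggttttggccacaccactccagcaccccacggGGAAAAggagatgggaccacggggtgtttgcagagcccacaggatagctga
Ramp3 (chr11:6658283-6658532, plus strand): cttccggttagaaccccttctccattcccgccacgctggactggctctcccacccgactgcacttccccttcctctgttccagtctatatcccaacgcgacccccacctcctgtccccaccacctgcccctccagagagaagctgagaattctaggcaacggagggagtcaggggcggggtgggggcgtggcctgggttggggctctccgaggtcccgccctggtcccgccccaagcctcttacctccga
Calcrl (chr2:84425267-84425516, minus strand): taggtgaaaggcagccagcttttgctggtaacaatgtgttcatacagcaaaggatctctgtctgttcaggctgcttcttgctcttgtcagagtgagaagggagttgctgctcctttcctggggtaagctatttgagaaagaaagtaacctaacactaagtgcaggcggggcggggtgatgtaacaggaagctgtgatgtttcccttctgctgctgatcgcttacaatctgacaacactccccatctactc
Calca (chr7:114636358-114636607, minus strand): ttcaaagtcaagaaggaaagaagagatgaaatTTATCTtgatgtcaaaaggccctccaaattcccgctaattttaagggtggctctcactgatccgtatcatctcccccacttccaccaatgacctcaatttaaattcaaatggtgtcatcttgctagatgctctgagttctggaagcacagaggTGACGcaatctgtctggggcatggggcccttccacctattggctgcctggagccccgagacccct
The motifs searched on both strands were a cyclic AMP response element, TGACGTCA, its core TGACG, which the full element contains, an AP-1 site with the letters TGANTCA, an NFAT site with the letters GGAAAA and a site of the GATA factors with the letters AGATAA. The Ramp1 stretch held 1 match, to the NFAT letters, which 20.4% of all 32851 stretches of this length hold. The Calca stretch held 1 match to the core TGACG, present in 17.8% of all stretches, and 1 to the GATA letters on the opposite strand, present in 9.99%. The Ramp3 and Calcrl stretches held no match to these letters. The full response element was in 1.55% of all stretches and the AP-1 letters in 6.75%, and neither was in these 4. The Ramp3 stretch was richer in G and C (65.2%) than those of Ramp1 (54%), Calcrl (48.4%) and Calca (48%), where the median over all stretches was 52.4%.

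Calcrl, which encodes the other part of the CGRP receptor, and Ramp3 gave no call. Calcrl (chr2:84330626-84425411, minus strand), the receptor chain itself, had 119, 96.3 and 109 CPM in Piezo1 KO replicates 1, 2 and 3, against 107, 109 and 74.8 CPM in WT replicates 1, 2 and 3. The groups overlapped, and WT replicate 3, the shallowest library, was the lowest. The log2 fold change was 0.16 ± 0.16 (SE), with a 95% interval of −0.20 to 0.52 and an adjusted p of 0.736 (edgeR), and without WT replicate 3 it was 0.0030. Endothelial cells also express Calcrl, and 4 of 12 endothelial markers were in the table, summing to 74.2 to 80.9 CPM in Piezo1 KO and 46.7 to 53.1 CPM in WT. Most of that sum was Pecam1, which leukocytes also express, at 67.5 ± 3.41 CPM in Piezo1 KO and 43.1 ± 2.85 CPM in WT (SD, n = 3 each, adjusted p = 0.0193, edgeR), a call that was lost without any 1 of the Piezo1 KO libraries or WT replicate 1 (0.0982 to 0.124).

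Ramp3 (chr11:6658521-6677475, plus strand), whose product with CALCRL forms an adrenomedullin receptor, was the lowest of the 6 genes. It had 3.09, 2.42 and 2.73 CPM in Piezo1 KO replicates 1, 2 and 3, against 2.26, 3.35 and 3.07 CPM in WT replicates 1, 2 and 3, from 64 to 73 counts and 41 to 112 counts per library. The groups overlapped, with a log2 fold change of −0.08 ± 0.27 (SE), a 95% interval of −0.71 to 0.55 and an adjusted p of 0.941 (edgeR). A pseudogene on the other strand, Gm11978, shares 101 exonic bases with Ramp3. Ramp2, which with CALCRL forms the other adrenomedullin receptor and is typical of endothelium, was at 1.37 ± 0.155 CPM in Piezo1 KO and 1.05 ± 0.414 CPM in WT (SD, n = 3 each), and it shares 1103 exonic bases on the same strand with Vps25, which averaged 88.4 CPM and 90.4 CPM, so its count is uncertain. Crcp, an intracellular component that couples the CGRP receptor to its G protein, was at 48.9 ± 1.89 CPM in Piezo1 KO and 50.7 ± 4.43 CPM in WT (SD, n = 3 each). Of the 6 tested genes of the calcitonin peptide family and its receptors, 0 rose in edgeR, with 0 higher at an unadjusted p under 0.05 and 0 in DESeq2, 1 fell (Ramp1), and 5 did not pass.

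Within a library, the ratio of receptor parts does not depend on the scaling between libraries. The log2 ratio of Ramp1 to Calcrl counts was −2.46, −1.74 and −2.07 in Piezo1 KO replicates 1, 2 and 3, against −1.002, −1.14 and −0.27 in WT replicates 1, 2 and 3. The means differed by −1.28 and the groups did not overlap (p = 0.1, exact permutation test, two-sided, the smallest that 3 against 3 libraries allow, or 0.15 adjusted over the 3 ratios). The log2 ratio of Ramp1 to Ramp3 averaged 3.20 ± 0.38 in Piezo1 KO and 4.25 ± 0.34 in WT (SD, n = 3 each), a difference of −1.04 with no overlap and the same exact p. The log2 ratio of Ramp3 to Calcrl averaged −5.29 ± 0.022 in Piezo1 KO and −5.05 ± 0.478 in WT (SD, n = 3 each), and the groups overlapped (p = 0.4, exact permutation test). The design cannot reach 0.05 for any of these ratios.

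**Figure D2:**
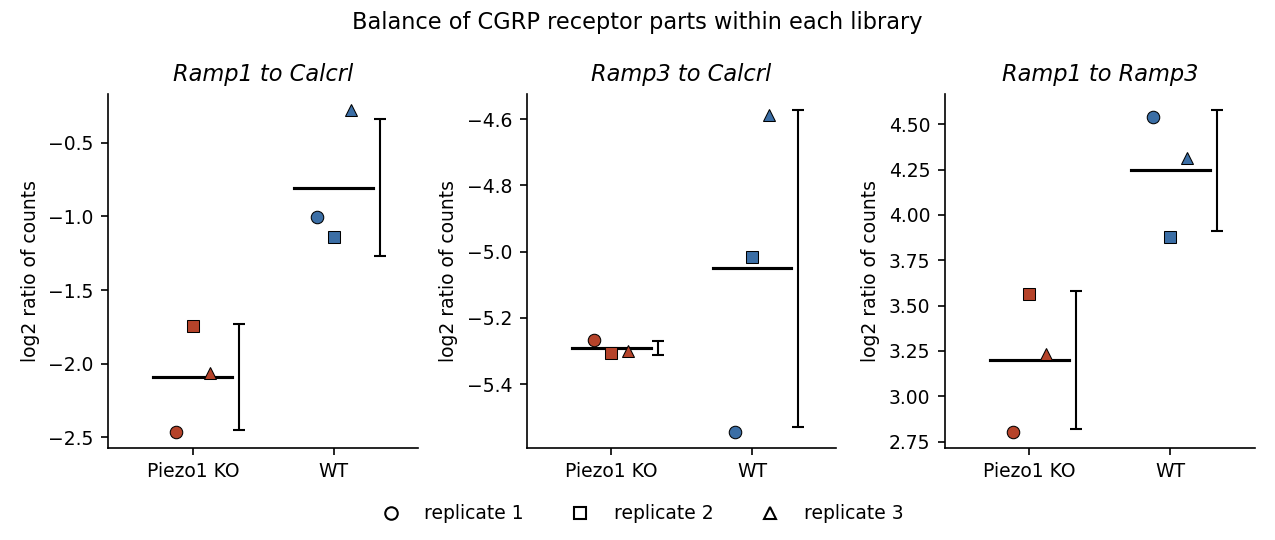
Log2 ratio of estimated counts (vertical axes) between the receptor genes Ramp1, Calcrl and Ramp3 within each of the 3 Piezo1 KO (red) and 3 WT (blue) libraries. Horizontal lines are group means and bars 1 SD. The ratios of Ramp1 to Calcrl and of Ramp1 to Ramp3 lie lower in every Piezo1 KO library, by −1.28 and −1.04 on average, and those of Ramp3 to Calcrl overlap.

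The genes nearest to Ramp1 in pattern over the 6 libraries were Anxa1, Csf2 and Tgtp1, at root mean square differences of 0.096, 0.13 and 0.15 in centred log2 CPM, against a median of 0.771 over 1015 genes. Anxa1, which encodes the anti-inflammatory protein annexin A1, averaged 23.2 CPM in Piezo1 KO and 52.9 CPM in WT, and missed the threshold without Piezo1 KO replicate 1 (adjusted p = 0.0540, edgeR) or WT replicate 1 (0.0528). Csf2, the gene of GM-CSF, averaged 36.3 CPM in Piezo1 KO and 78.9 CPM in WT. Tgtp1, an interferon-inducible GTPase with a near-identical copy, so that its reads may be shared, averaged 16.1 CPM in Piezo1 KO and 33.9 CPM in WT.

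Calca (chr7:114631478-114636357, minus strand), the ligand gene, had 13.1, 15.3 and 13.5 CPM in Piezo1 KO replicates 1, 2 and 3, against 10.6, 8.03 and 15.7 CPM in WT replicates 1, 2 and 3. The WT libraries were spread widely and WT replicate 3 was the highest of all 6, so the groups overlapped. Calca gave a log2 fold change of 0.30 ± 0.24 (SE), a 95% interval of −0.24 to 0.85 and an adjusted p of 0.650 (edgeR), and it moved between 0.083 without WT replicate 2 and 0.59 without WT replicate 3. Alternative splicing of Calca gives either CGRP or calcitonin, and a count per gene sums both. Pulmonary neuroendocrine cells also make CGRP, and 5 of 13 neuroendocrine and neuronal markers were in the table, summing to 24.3 to 26.5 CPM in Piezo1 KO and 16.1 to 23.3 CPM in WT. Most of that sum was Uchl1, at 22.1 ± 1.64 CPM in Piezo1 KO and 17.2 ± 4.03 CPM in WT (SD, n = 3 each), and Syp, the synaptic vesicle protein synaptophysin, was at 2.17 ± 0.421 CPM and 1.81 ± 0.515 CPM. Prph averaged 0.776 CPM in Piezo1 KO and 0.414 CPM in WT. Tubb3 and Elavl4 went the other way. Tubb3 averaged 0.759 CPM in Piezo1 KO and 1.31 CPM in WT. Elavl4 had 0 counts in each Piezo1 KO library and 3, 4 and 5 counts in WT replicates 1, 2 and 3.

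Nmur1 (chr1:86386303-86426228, minus strand), the neuromedin U receptor gene, had 173, 181 and 161 CPM in Piezo1 KO replicates 1, 2 and 3, against 173, 223 and 167 CPM in WT replicates 1, 2 and 3. Only WT replicate 2 stood above the others, and the groups overlapped. Nmur1 averaged 172 ± 10.03 CPM in Piezo1 KO and 188 ± 30.8 CPM in WT (SD, n = 3 each). The log2 fold change was −0.13 ± 0.13 (SE), with a 95% interval of −0.42 to 0.16 and an adjusted p of 0.737 (edgeR), and it moved between −0.0012 without WT replicate 2 and −0.21 without WT replicate 3. This was the narrowest interval among the 6 genes. Of the 3 tested genes of the neuromedin and bombesin list 0 passed in edgeR and 0 in DESeq2. At an unadjusted p under 0.05, 1 was higher (6.3% of all tested genes). That gene was Grp, gastrin-releasing peptide, with 42 to 68 counts per Piezo1 KO library and 12 to 29 per WT library, a log2 fold change of 1.28 ± 0.32 (SE) and an adjusted p of 0.123 (edgeR).

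**Figure D3:**
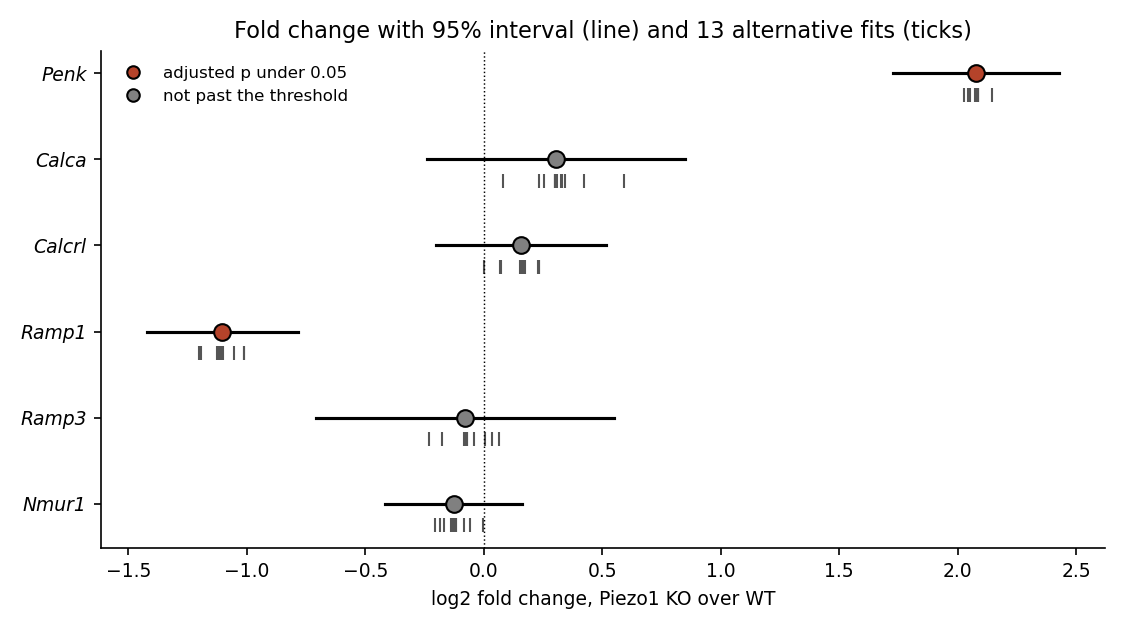
Log2 fold change of Piezo1 KO over WT (horizontal axis) for each gene, with its 95% interval as a line and the values of 13 alternative fits as ticks below it. Penk lies at 2.08 and Ramp1 at −1.10, with every alternative on the same side, and the intervals of the other genes cross 0.

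For the genes without a call, the nearest genes were Elob, AL731706.1 and Lgals1 to Calca (root mean square difference of 0.060 to 0.069 in centred log2 CPM), Nup98, Ltn1 and Hltf to Calcrl (0.029 to 0.033), Ubtd1, Nudt18 and Zfp523 to Ramp3 (0.047 to 0.070) and Tmem189, Slc25a42 and Ahcy to Nmur1 (0.023 to 0.035). None of these 12 genes passed the threshold in edgeR.

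Levels can be compared between genes once divided by the length of their annotated exons, here the GENCODE M21 union from 1.38 kb for Ramp3 to 4.88 kb for Calcrl. Nmur1 was the highest, at 101 ± 5.92 CPM per kb in Piezo1 KO and 111 ± 18.2 CPM per kb in WT (SD, n = 3 each), above 96.1% and 96.7% of 13812 tested genes with a length. Calcrl followed, at 22.1 ± 2.38 CPM per kb in Piezo1 KO and 19.8 ± 3.90 CPM per kb in WT. In WT, Ramp1 came next at 18.2 ± 2.09 CPM per kb and overlapped Calcrl, while in Piezo1 KO it was at 8.43 ± 1.19 CPM per kb and every library was below every Calcrl value. Calca was at 8.30 ± 0.681 CPM per kb in Piezo1 KO and 6.78 ± 2.31 CPM per kb in WT, and overlapped Ramp1 only in Piezo1 KO.

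Penk moved furthest in this order. At 10.5 ± 0.863 CPM per kb in Piezo1 KO it stood above 66.4% of tested genes and overlapped Ramp1, and at 2.48 ± 0.0934 CPM per kb in WT (SD, n = 3 each) it stood above 37.0% and overlapped Ramp3. Ramp3 was the lowest, at 1.99 ± 0.242 CPM per kb in Piezo1 KO and 2.10 ± 0.408 CPM per kb in WT. The order rests on annotated exon lengths, and the transcripts that these cells use may be shorter.

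**Figure D4:**
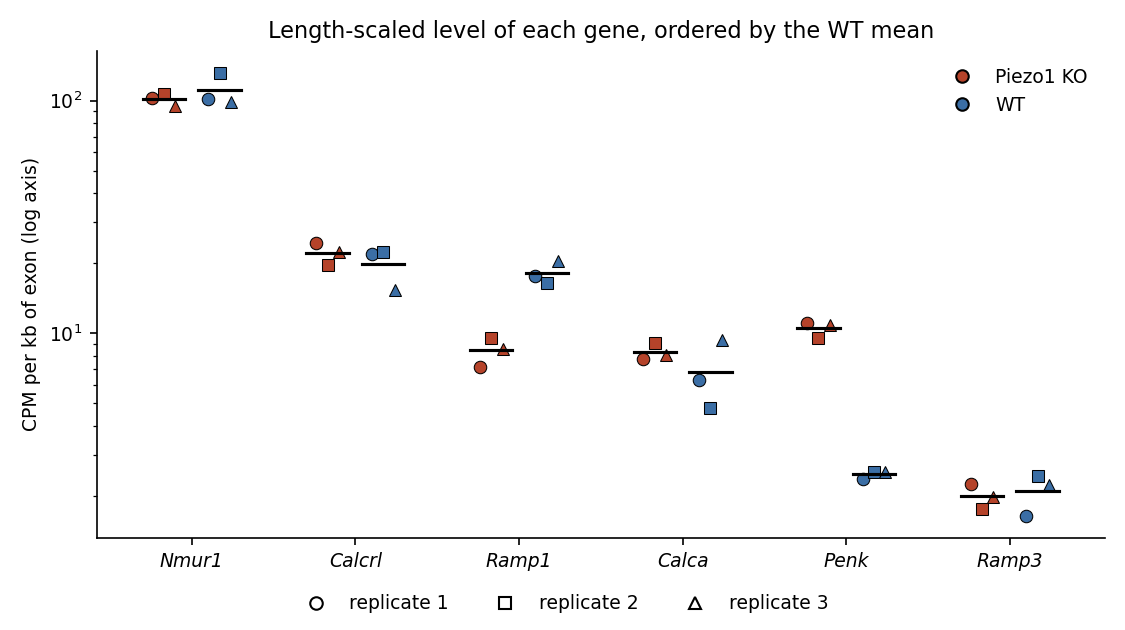
CPM per kb of annotated exon (log axis) for the 6 genes in each Piezo1 KO (red) and WT (blue) library, ordered by the WT mean; symbols mark replicates and lines group means. Nmur1 lies near 100 in both groups (means 101 and 111), Penk is at 10.5 in Piezo1 KO and 2.48 in WT, and Ramp1 at 8.43 and 18.2.

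The signalling genes behind these receptors gave no call. Of 31 tested genes of Gs and cyclic AMP signalling, the route of the CGRP receptor, 0 passed in edgeR. At an unadjusted p under 0.05, 0 were higher and 4 lower (6.3% and 6.91% of all tested genes). Log2 fold changes were positive for 9 of the 31, and for 53% of all tested genes. The median log2 fold change was −0.07, where that of all tested genes was 0.02. The smallest p there was that of Grk6, a kinase that desensitizes G protein-coupled receptors, at 202 ± 27.7 CPM in Piezo1 KO and 282 ± 49.9 CPM in WT (SD, n = 3 each, adjusted p = 0.201, edgeR), and it passed in DESeq2 (0.0447). Of 16 tested cyclic AMP and CREB target genes 0 passed in edgeR, and the median was −0.0056. At an unadjusted p under 0.05, 3 were higher and 3 lower (6.3% and 6.91% of all tested genes). Fos, an immediate early transcription factor, had the smallest p, at 7.39 ± 1.15 CPM in Piezo1 KO and 12.9 ± 1.52 CPM in WT (SD, n = 3 each, adjusted p = 0.0851, edgeR), and it passed in DESeq2 (0.00673) and limma-voom (0.0269).

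For the Gq route of NMUR1, 0 of 18 tested genes passed in edgeR, with a median of −0.08. At an unadjusted p under 0.05, 1 was higher and 1 lower (6.3% and 6.91% of all tested genes). Prkcq, protein kinase C theta, averaged 38.5 ± 1.10 CPM in Piezo1 KO and 51.8 ± 1.80 CPM in WT (SD, n = 3 each, adjusted p = 0.0672, edgeR), and it passed with the stricter filter (0.0443), in DESeq2 (0.00346) and in limma-voom (0.0261). For the Gi route of opioid receptors, 0 of 13 tested subunit genes passed in edgeR and 0 in DESeq2, with a median of −0.11. At an unadjusted p under 0.05, 1 was higher and 4 lower (6.3% and 6.91% of all tested genes). The groups did not overlap for 8 of the 13 (20.6% of all tested genes). The smallest p was that of Gng3, a gamma subunit, at 1.32 ± 0.440 CPM in Piezo1 KO and 0.414 ± 0.160 CPM in WT (SD, n = 3 each, adjusted p = 0.176, edgeR).

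Other receptors for nerve-derived signals gave no call in edgeR. Of 6 tested neurotransmitter receptors 0 passed in edgeR. At an unadjusted p under 0.05, 1 was higher and 1 lower (6.3% and 6.91% of all tested genes). Hrh2, a histamine receptor, averaged 12.4 ± 1.35 CPM in Piezo1 KO and 8.29 ± 0.695 CPM in WT (SD, n = 3 each, adjusted p = 0.143, edgeR). Htr1b, a serotonin receptor, averaged 14.2 ± 2.35 CPM in Piezo1 KO and 22.7 ± 5.32 CPM in WT (SD, n = 3 each, adjusted p = 0.176, edgeR), and it passed in DESeq2 (0.0497) and limma-voom (0.0390). The only tested gene of the other neuropeptide systems was Vipr2, a receptor for vasoactive intestinal peptide, at 24.6 ± 1.18 CPM in Piezo1 KO and 23.9 ± 4.47 CPM in WT (SD, n = 3 each), with a log2 fold change of 0.04 ± 0.15 (SE, adjusted p = 0.951, edgeR).

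Of the 10 tested cytokines and growth factors listed as ILC2 outputs, 1 fell, 0 rose in edgeR and 9 did not pass. The gene that fell was Csf2 (log2 fold change −1.12 ± 0.19, SE, adjusted p = 0.0290, edgeR). At an unadjusted p under 0.05, 6 were higher and 1 lower (6.3% and 6.91% of all tested genes). Csf2 missed the threshold without Piezo1 KO replicate 1 (adjusted p = 0.141, edgeR), Piezo1 KO replicate 2 (0.153), Piezo1 KO replicate 3 (0.0875) or WT replicate 1 (0.145). Il5, the eosinophil growth factor, averaged 5159 ± 505 CPM in Piezo1 KO and 4038 ± 48.4 CPM in WT (SD, n = 3 each, adjusted p = 0.120, edgeR) and passed as higher in DESeq2 (0.0220) and limma-voom (0.0406). The others higher at an unadjusted p under 0.05 were Il13, Il9, Areg, Il10 and Il2. Il13 averaged 196 ± 16.3 CPM in Piezo1 KO and 163 ± 15.3 CPM in WT (SD, n = 3 each, adjusted p = 0.339, edgeR). Over all these lists together, and leaving out the 6 genes described above, 1 of 113 tested genes passed (0.885%, against 1.51% of all tested genes), and the median log2 fold change was −0.01, against 0.02 over all tested genes. At an unadjusted p under 0.05, 14 of the 113 were higher and 15 lower, against 6.3% and 6.91% of all tested genes. The groups did not overlap in 31.9% of the 113, against 20.6% of all tested genes.

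**Figure D5:**
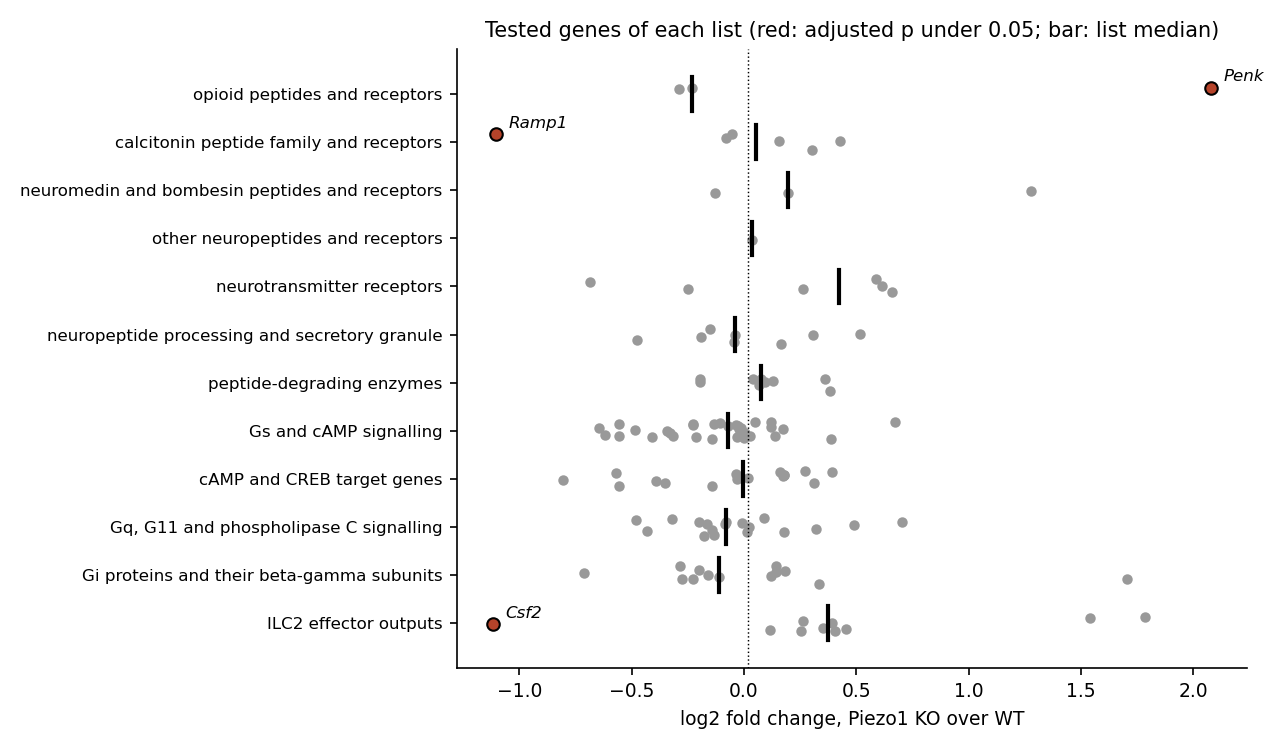
Log2 fold change of Piezo1 KO over WT (horizontal axis) for each tested gene of the 12 lists; red points are genes past an adjusted p of 0.05, black bars list medians, and the dotted line the median of all tested genes (0.02). Penk, Ramp1 and Csf2 are the called genes, and the medians of the 12 lists lie between −0.23 and 0.43.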

How the data were processed

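The authors deposited estimated counts for each gene and library. They are unscaled, and 37.9% to 47.4% of a library's values were not whole, at a tolerance of 1e-09. Per the submitters' processing notes the build is mm10. The aligner, counter, annotation and strand setting were not given in the sources used here. Libraries were made from 10 ng of RNA, per the labels' protocols. Rows were matched to samples by their descriptions, and groups and replicate numbers were taken from the titles.

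Counts were rounded, filtered with filterByExpr, scaled by TMM and tested with edgeR 4.0.16 (R 4.3.3) quasi-likelihood, two-sided, without covariates, with Benjamini-Hochberg adjustment over 14149 genes. SE is the absolute log2 fold change divided by the square root of F. The members and lists were chosen with earlier results of these data known. From each list, called genes were named, or else the gene with the smallest p, with the 3 genes nearest each member. Furin, Cpe, Ramp2, Crcp, Ogfr, Pomc, Adm, Gal, Htr1b, Il5, Uchl1, Syp, Vps25, Pecam1, Cd3e, Lef1, Trbc2, Il7r, Icos and Il17rb were added after their values were seen. So were Ighm, Cd79b, Cd79a, Mzb1, Pdgfrb, Col1a1, Epcam, Krt18, Cdh1, Cd68, Csf1r, Lyz2, Gata3, Thy1, Il13, Il9, Areg, Il10 and Il2. The same holds for Hba-a1, Hba-a2, Hbb-bt, Cma1, Tubb3, Prph, Elavl4, Trac, Trbc1, Cd3d, Cd3g and Foxp3. Nearest genes were taken among those with a mean log2 CPM (prior count 2) of at least 3 and at least 0.5 times the member's SD, leaving out predicted genes. Ratios had 0.5 added to the counts.

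Replicates differed by more than counting noise in each pair (chi-square per gene of 10.9 to 59.8, where 1 is noise alone). The test was first checked on simulated counts with known changes. Alternatives were RLE scaling, no filter, a stricter filter (at least 1 CPM in each library of either group), the replicate block, leaving out each library, DESeq2 1.42.0, limma-voom 3.58.1 with quality weights and robust quasi-likelihood, and for ratios 3 added counts. Positions are from GENCODE M21 (GRCm38, which is mm10).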

Additional observations from a re-analysis of the deposited data

How the results depend on the processing

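Of 78 values for the 6 genes under 13 alternative fits, 71 kept their direction and their side of the threshold. Penk passed in all 13. Ramp1 missed the threshold with the replicate block (log2 fold change −1.11, adjusted p = 0.0520, edgeR), as did Csf2 (0.0685), Pecam1 (0.134), Icos (0.101) and Il17rb (0.0807). Ramp1 also missed it without Piezo1 KO replicate 1, Piezo1 KO replicate 3 or WT replicate 1, and its log2 fold change lay between −1.20 and −1.01 when single libraries were left out. Ramp3, not called, turned positive in limma-voom (0.064) and without Piezo1 KO replicate 2 (0.0058) or WT replicate 2 (0.034), with a range of −0.23 to 0.034 over the left-out libraries. Other genes without a call also crossed 0. In limma-voom Ubtd1 was at 0.029, Nudt18 at 0.080 and Crcp at 0.016. With single libraries left out, log2 fold changes ran from −0.066 to 0.18 for Vipr2, −0.028 to 0.22 for Nup98, −0.00096 to 0.27 for Ltn1, −0.0072 to 0.25 for Hltf, −0.13 to 0.071 for Nudt18, −0.21 to 0.0096 for Zfp523, −0.18 to 0.022 for Tmem189, −0.18 to 0.0021 for Slc25a42, −0.14 to 0.011 for Ahcy and −0.11 to 0.0027 for Crcp. The cause was not tested. The replicate numbers did not pair the samples: deviations of same-numbered libraries correlated at −0.183 to −0.0075, and 0 of 3 Piezo1 KO libraries correlated best with their own number. Over all genes, 142 passed as higher and 72 as lower. With the replicate block these were 37 and 15, in DESeq2 352 and 241, and in limma-voom 267 and 172, and leaving out single libraries gave 22 (without Piezo1 KO replicate 2) to 209 and 10 (without Piezo1 KO replicate 1) to 92. Among the other genes of the lists, 0 passed as higher and 1 as lower. The lower count was 2 with the stricter filter, 0 with the replicate block, 6 in DESeq2 and 5 in limma-voom, and 0 to 2 when single libraries were left out. The higher count was 1 in DESeq2 and in limma-voom. Of 312 counts for single lists, 289 stayed within 1.5 times. With single libraries left out, the difference in log2 ratio ran from −1.46 to −1.02 for Ramp1 to Calcrl, −1.23 to −0.85 for Ramp1 to Ramp3 and −0.49 to −0.01 for Ramp3 to Calcrl, where the replicate SD was 0.022 in Piezo1 KO and 0.478 in WT. With 3 libraries a group, changes of Calca, Calcrl, Ramp3 and Nmur1 within the intervals given could be missed at this depth.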

Other observations

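Several peptide and receptor genes were in the table at levels too low to test. Of 137 other genes of the lists, 24 did not pass the filter on low counts, and none of these had more than 19 counts in any library. Among peptide genes, Adm, which encodes the CALCRL ligand adrenomedullin, had 2, 7 and 8 counts in Piezo1 KO replicates 1, 2 and 3, against 2, 3 and 0 counts in WT replicates 1, 2 and 3. Gal, which encodes galanin, had 0, 11 and 1 counts in Piezo1 KO replicates 1, 2 and 3, against 0, 4 and 0 in WT replicates 1, 2 and 3. Nearly all of its counts thus came from replicate 2, the deepest library of each group (29733378 and 33459904 counts in total). The replicate numbers did not pair the samples. These genes were not tested for a difference.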
